A study of Mus musculus with 10 samples.

Results

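Integrins are cell surface receptors built from an alpha and a beta subunit, which tie the matrix outside a cell to its actin skeleton. Laminins are the crossed proteins of the basement membrane, each assembled from an alpha, a beta and a gamma chain, and several integrins bind them. In heart muscle the receptor of Itga7 and Itgb1 and the laminins that contain Lama2 link each myocyte to the membrane around it, and vessel walls hold laminins with Lama4 and Lama5. All genes whose symbol names an integrin alpha subunit, an integrin beta subunit or a laminin chain were taken, by name alone and with no measured value. There were 37 of them among the 54532 genes of the count table, 26 integrin subunit genes and 11 laminin chain genes.

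RNA was sequenced from the left atrial wall around the pulmonary veins of mice, with the appendage and most of the veins cut away, in 4 control (Ctrl) and 6 mutant (CKO) libraries. Ctrl mice were R26creERT2/creERT2; Tbx5+/+ and CKO mice R26creERT2/creERT2; Tbx5flox/flox, so both groups carried the inducible Cre on both chromosomes, and both received tamoxifen on 3 days at 6 weeks of age, with tissue taken 1 week later. Cre was expressed from the Rosa26 locus, which is active in most cell types, so the deletion was not limited to muscle. Tbx5 encodes a T-box transcription factor of the atria, and the comparison asks what its induced deletion in the adult changes.

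Library totals ran from 8602794 to 10040808 counts. Coverage of Tbx5 exon 3 was 98.0% to 121% of that of exon 4 in Ctrl and 19.5% to 60.4% in CKO libraries, so exon 3 reads remained in every CKO library. Tbx5 counts over the whole gene, which also take in exons outside the deleted part, were higher in every CKO library than in any Ctrl library. They ran from 89.6 to 159 CPM in Ctrl and from 167 to 425 CPM in CKO, and the cause was not tested. CPM are counts scaled to a common library total, with TMM factors. The atrial muscle markers Myl7, Myl4 and Sln were present in every library, as were markers of endothelial cells, fibroblasts and macrophages. Ctrl 3 and CKO 4 stood apart through airway transcripts, with a summed level of 12 airway and lung epithelial markers of 1920 and 3096 CPM, against 15.5 to 112 CPM in the other libraries. The tissue is a mixture of cell types, in which fewer cells of a type and less RNA per cell cannot be told apart.

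Itga5 and Itga9 rose in CKO, and no member was called lower. Of the 37 genes, 34 passed the filter on low counts and were tested. Those left out were Itgad, Itgae and Lama1, none of which reached more than 11 counts in any library. A gene was called at an adjusted p under 0.05 in the quasi-likelihood test of edgeR, with Benjamini-Hochberg adjustment over 17752 genes. Of all genes tested, 1.54% were called higher and 1.26% lower, against 2 and 0 of the 34 members. The 0 lower calls stood at 1 under DESeq2 and 1 under limma with voom weights, Lamb3 in both. At an unadjusted p under 0.05 there were 6 members, 4 of them with a positive fold change and 2, Lamb3 and Itga11, with a negative one, beside 17% of all genes. The median log2 fold change of the tested members was 0.11, with 21 of 34 above 0, and that of all genes was -0.03, with 46.6% above 0.

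Itga5 encodes the alpha subunit of the main fibronectin receptor. The gene (ENSMUSG00000000555) lies on chromosome 15, 103344286 to 103366763, minus strand (mm10). It was at 47.7, 44.9, 51.1 and 58.6 CPM in Ctrl 1 to 4 and at 68.8, 93.8, 97.6, 66.5, 97.1 and 71.0 CPM in CKO 1 to 6. Every CKO library lay above every Ctrl library. The means were 50.6 ± 5.9 CPM (SD, n = 4) and 82.5 ± 15.1 CPM (SD, n = 6), a log2 fold change of 0.71 (SE 0.15) or 1.63-fold, with an adjusted p of 0.0281 in edgeR.

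Itga9 encodes the alpha subunit of a receptor for tenascin and other matrix proteins, known for its part in lymphatic valves. The gene (ENSMUSG00000039115) lies on chromosome 9, 118606690 to 118901003, plus strand (mm10). It was at 110, 103, 117 and 102 CPM in Ctrl 1 to 4 and at 167, 186, 185, 119, 146 and 170 CPM in CKO 1 to 6. The groups did not overlap, although CKO 4 at 119 CPM lay close to Ctrl 3 at 117 CPM. The log2 fold change was 0.59 (SE 0.13), from 108 ± 7.2 CPM (SD, n = 4) to 162 ± 25.6 CPM (SD, n = 6), with an adjusted p of 0.0351 in edgeR. Itga5 and Itga9 were the members whose groups did not overlap, both with CKO higher. Among all genes tested, 3.03% had every CKO library above every Ctrl library and 2.7% had every CKO library below.

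Both calls were lost when Ctrl 1, Ctrl 2 or CKO 2 was left out. The adjusted p of Itga5 in edgeR was then 0.101, 0.104 and 0.0594, and that of Itga9 was 0.104, 0.116 and 0.0714. The call of Itga9 was lost as well without Ctrl 4 (0.108), CKO 1 (0.0765), CKO 3 (0.0578) or CKO 6 (0.0691). Macrophage markers moved in the same direction, with 12 of 12 positive and 3 of 12 called higher, beside 1.54% of all genes tested. Their summed levels were 975 to 2022 CPM in Ctrl and 1472 to 2822 CPM in CKO. The 12 endothelial markers gave 985 to 1357 CPM and 1336 to 1554 CPM, with 11 positive and 0 called, and the 7 lymphatic endothelial markers 289 to 364 CPM and 286 to 425 CPM. Their part in the higher Itga5 and Itga9 was not tested.

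**Figure D1:**
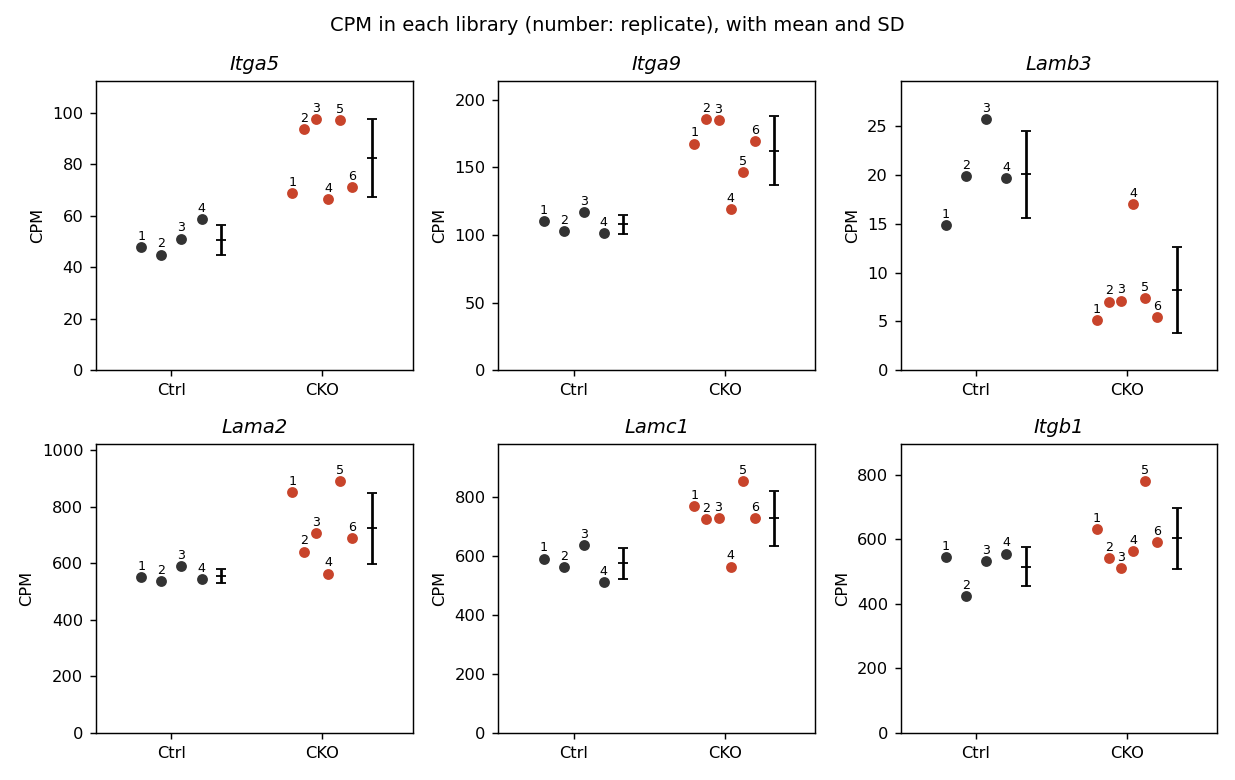
CPM of 6 genes in each library, with the replicate number at each point and the mean and SD beside each group. Itga5 and Itga9 show no overlap between Ctrl (black) and CKO (red), and CKO 4 is the CKO library nearest to Ctrl for Itga5, Itga9, Lamb3, Lama2 and Lamc1.

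Levels per gene length were compared as TPM, in which coverage per base is scaled to a common total in each library. Itgb1, the beta subunit shared by most matrix-binding integrins, was the most abundant member at 366 ± 62.1 TPM in Ctrl (SD, n = 4). It was followed by the laminin chains Lamb2 at 242 ± 42.1, Lamc1 at 222 ± 45.5, Lama4 at 142 ± 17.9, Lama2 at 139 ± 16.4 and Lamb1 at 119 ± 8.2 TPM. Of the 36 neighbouring pairs in this order, 6 had Ctrl ranges that did not overlap. These were Itgb1 above Lamb2, Lamc1 above Lama4, Lamb1 above Itgb5, Itgb5 above Itga7, Itga2 above Itga10 and Itgad above Lama1, so Lamb2 and Lamc1, or Lama4 and Lama2, cannot be ranked against each other. In Ctrl, counts divided by the exon length of each gene and scaled to a common total put Itgb5 (94.7) above Lamb1 (84.9). The order of this pair therefore depends on the measure of level. The least abundant were Itga10, Itgad, Itgae and Lama1, all under 1 TPM on average.

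**Figure D2:**
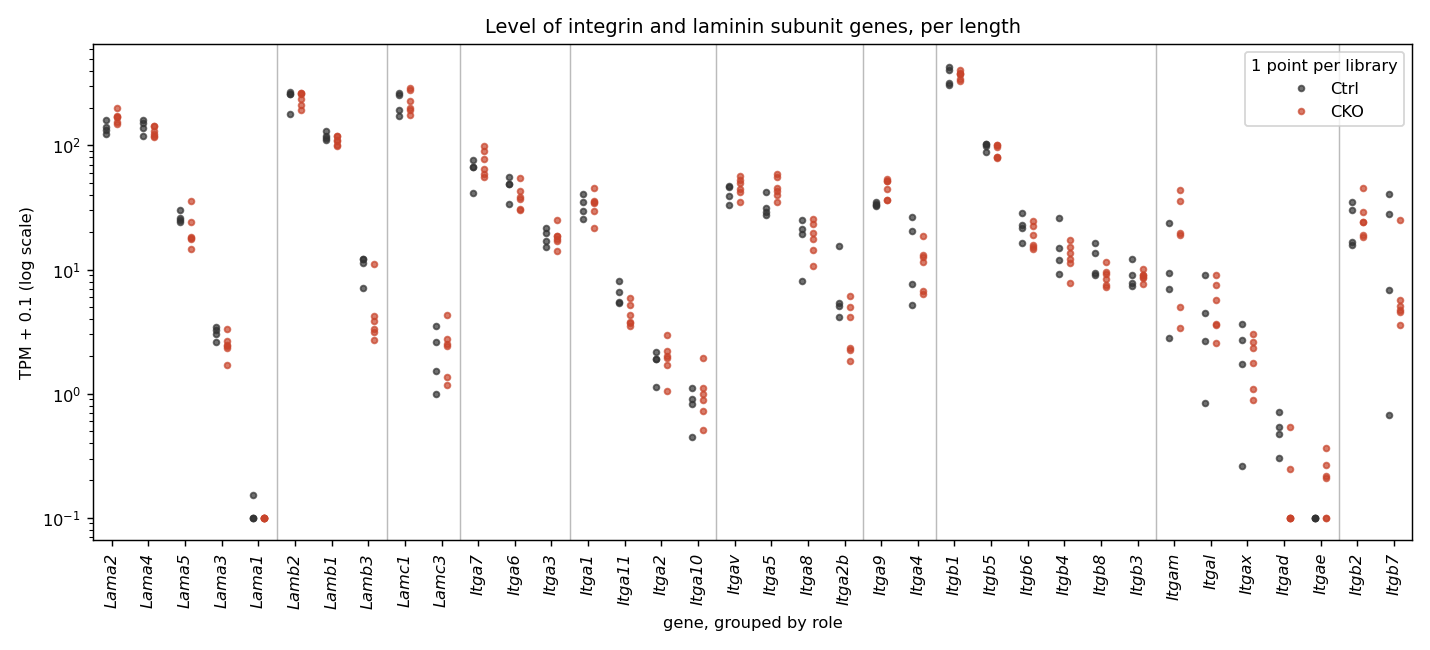
TPM + 0.1 on a log scale for 36 of the 37 genes, 1 point per library, with Ctrl in black and CKO in red and grey lines between roles. Itgb1 and the chains Lama2, Lama4, Lamb1, Lamb2 and Lamc1 lie above 100 TPM on average, and Lama1 and Itgae lie at or near 0.

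Among the laminin chains, Lama2 and Lama4 made up most of the alpha chain RNA, Lamb2 and Lamb1 most of the beta and Lamc1 most of the gamma chain RNA. In Ctrl, Lama2 held 44.8% ± 3.0 and Lama4 45.7% ± 2.8 of the summed alpha chain TPM, with Lama5 at 8.5% ± 0.7 and Lama3, a chain of epithelial laminins, at 0.97% ± 0.18 (SD, n = 4). In CKO, Lama2 stood at 52.5% ± 4.5 and Lama4 at 40.2% ± 3.3 (SD, n = 6). Their ranges overlapped between the groups, from 41.9% to 47.5% against 45.9% to 58.2% for Lama2. Lamb2 held 64.9% ± 5.1 of the beta chain TPM in Ctrl and 67.5% ± 1.6 in CKO, and Lamc1 held 96.2% ± 1.8 and 93.7% ± 3.5 of the gamma chain TPM. Lama1, the alpha chain of embryonic basement membranes, was at 0 counts in 9 of 10 libraries.

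Lama2, the alpha chain that is missing in a congenital muscular dystrophy, was at 550, 536, 590 and 545 CPM in Ctrl 1 to 4. In CKO 1 to 6 it was at 853, 641, 706, 564, 889 and 689 CPM. All CKO libraries but CKO 4 lay above the Ctrl range. The log2 fold change of 0.38 (SE 0.13) had an unadjusted p of 0.0153 and an adjusted p of 0.176 in edgeR, so it did not pass. Lamc1, the gamma chain of most laminins, was at 591, 562, 637 and 511 CPM in Ctrl and at 769, 724, 728, 564, 853 and 729 CPM in CKO. CKO 4 was again the one library inside the Ctrl range, and the log2 fold change of 0.34 (SE 0.12) had an adjusted p of 0.188 in edgeR. Without Ctrl 3 and CKO 4 the groups did not overlap for Lama2, Lamc1, Itga5, Itga6, Itga9 or Lamb3, 6 of 34 members in place of 2. In that smaller set of libraries 17.4% of all genes tested had groups that did not overlap, against 5.72% with all libraries, so the members' count was near that of all genes. The members called in that setting were Itga5, Itga9 and Lamb3.

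The other abundant chains differed by less. Lama4, found around vessels and muscle fibres, had a Ctrl mean of 367 ± 42.7 CPM and a CKO mean of 365 ± 27.5 CPM, a log2 fold change of -0.01 (SE 0.10, adjusted p 0.981 in edgeR), whose sign changed under other scalings. Lamb2 was at 534 ± 59.7 and 571 ± 46.6 CPM, and Lamb1 at 267 ± 14.2 and 285 ± 23.0 CPM, with a log2 fold change of 0.10 for each (SE 0.10 and 0.09, adjusted p 0.669 and 0.607 in edgeR). Lama5, Lama3 and Lamc3 had log2 fold changes from -0.19 to 0.21, and none had an adjusted p under 0.05. Over the 10 tested laminin chains the median log2 fold change was 0.10, with 6 above 0.

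**Figure D3:**
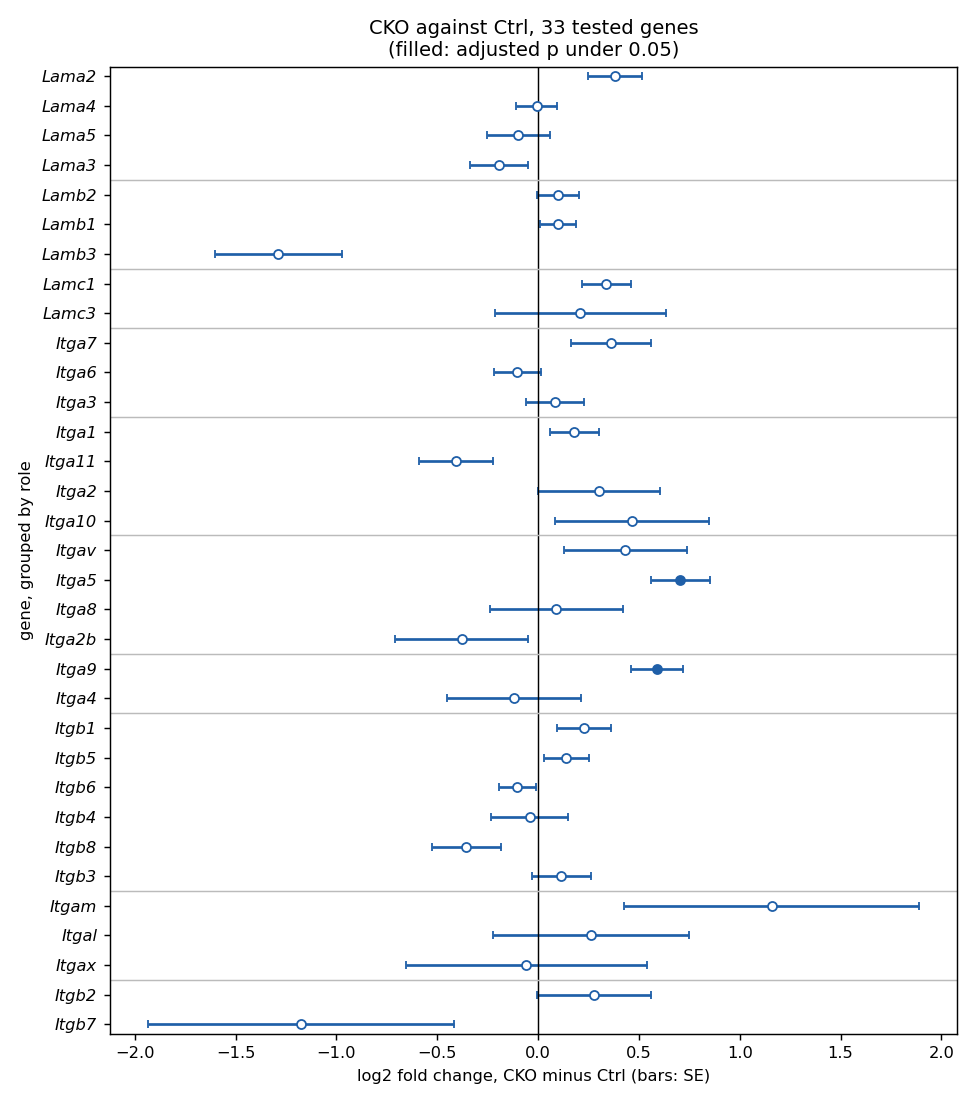
Log2 fold change of CKO minus Ctrl with its SE for 33 of the 34 tested genes, grouped by role. Only Itga5 and Itga9 are filled, for an adjusted p under 0.05, and Lamb3 at -1.29 is the lowest value.

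Lamb3, a beta chain of the laminin of skin and airway epithelium, had the lowest fold change of all members and is described although it was not called, a choice made after its values were seen. It was at 14.9, 19.9, 25.8 and 19.7 CPM in Ctrl 1 to 4 and at 5.15, 7.03, 7.14, 17.0, 7.42 and 5.42 CPM in CKO 1 to 6. The groups overlapped through CKO 4 alone, 1 of the 2 libraries with airway transcripts. The log2 fold change was -1.29 (SE 0.31), with an unadjusted p of 0.0017 and an adjusted p of 0.0564 in edgeR. Without CKO 4 it was -1.64, with an adjusted p of 0.0024 in edgeR, and without both Ctrl 3 and CKO 4 it was -1.48, with an adjusted p of 0.0057. Over 19 alternatives the adjusted p ran from 0.0024 to 0.183 and was under 0.05 in 5.

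Reads on Lamb3 were not spread evenly along the gene. Its most covered transcript, Lamb3-209 (mm10, chromosome 1, 193207725 to 193343878, plus strand), has 27 exons, which were read as the first 5, exons 6 to 21 and the last 6, exons 22 to 27. In Ctrl libraries the last 6 exons had a mean coverage of 4.27 reads per base, and exons 6 to 21 had 0.677. The last 6 exons, 1331 bases from position 193335357, gave 9.24, 12.4, 15.2 and 12.7 CPM in Ctrl 1 to 4 and 1.90, 3.25, 3.40, 7.35, 3.55 and 2.03 CPM in CKO 1 to 6. On these exons the groups did not overlap, and the Ctrl mean of 12.4 ± 2.5 CPM (SD, n = 4) was 3.47 times the CKO mean of 3.58 ± 2.0 CPM (SD, n = 6).

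Exons 6 to 21 had another pattern. They gave 3.42, 2.96, 6.17 and 2.63 CPM in Ctrl 1 to 4 and 0.893, 0.942, 1.45, 6.30, 1.46 and 0.901 CPM in CKO 1 to 6. The highest values were those of CKO 4 and Ctrl 3, the libraries with airway transcripts. The first 5 exons gave 2.33 ± 0.88 CPM in Ctrl (SD, n = 4) and 1.64 ± 0.47 CPM in CKO (SD, n = 6). All of this came from exons 3 and 4, as exons 1, 2 and 5 had a coverage of 0 in every library. This split of the gene was made after its exons were seen and carries no test. The annotation lists no other gene over the last exons. The nearest one, Camk1g, lies at 193346346 to 193370298 on the opposite strand, with its 3′ end toward Lamb3.

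**Figure D4:**
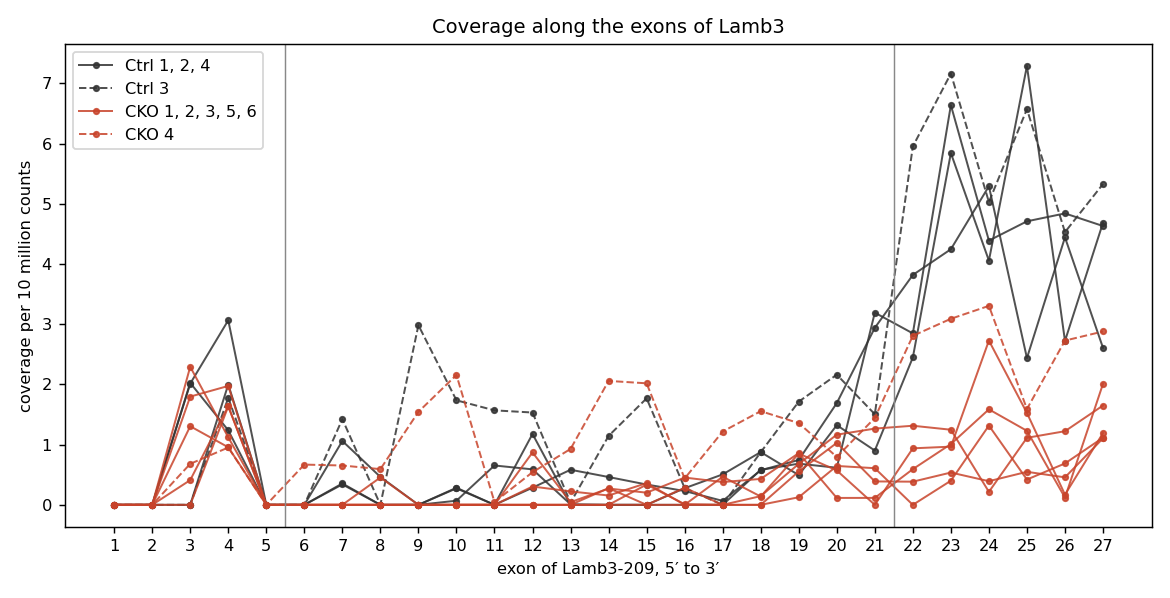
Coverage scaled to a common library total at each of the 27 exons of Lamb3-209, with Ctrl in black, CKO in red and Ctrl 3 and CKO 4 dashed. Ctrl libraries rise over the last 6 exons, to the right of the second grey line, while the CKO libraries other than CKO 4 stay low there.

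The other 33 tested members were measured in the same way, with the mean Ctrl coverage of the last 6 exons set over that of all earlier exons of the most covered transcript. The ratio was 5.37 for Lamb3. In the others the lowest was 0.489 and the median 0.951, and ratios above 1 were seen as well, such as 2.19 for Itga2. Lamb3 had the highest ratio of the 34. The cut at 6 exons had been chosen on the exons of Lamb3 itself, so its rank carries no test.

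Of the laminin-binding alpha subunits none was called. Itga7, the muscle subunit, was at 122, 137, 78.4 and 110 CPM in Ctrl 1 to 4 and at 123, 176, 199, 129, 123 and 111 CPM in CKO 1 to 6, with a log2 fold change of 0.36 (SE 0.20, adjusted p 0.388 in edgeR). Itga6, present in vessels and epithelia, ranged over 67.7 to 83.8 CPM in Ctrl libraries and 63.9 to 93.4 CPM in CKO libraries, with a log2 fold change of -0.10 (SE 0.12, adjusted p 0.693 in edgeR). Itga3 was at 33.2 ± 6.0 and 35.2 ± 5.1 CPM. Their partner Itgb1 was at 545, 425, 534 and 556 CPM in Ctrl and at 631, 541, 512, 564, 780 and 591 CPM in CKO. The groups overlapped, and the log2 fold change of 0.23 (SE 0.13) had an adjusted p of 0.421 in edgeR.

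Both muscle receptor genes have exons that mark forms of the protein, and their use was read from exon coverage. Striated muscle makes a form of the Itgb1 protein in which the end of the cytoplasmic tail comes from an extra exon before the last one. This exon has 81 bases (chr8:128726983-128727063, plus strand, mm10). Itga7 has a pair of exons in the extracellular part that exclude each other, the first of 132 bases (chr10:128941445-128941576) and the second of 120 bases (chr10:128941822-128941941), both on the plus strand. They are printed because reads over these bases are what tells the forms apart. Capitals mark the alternative exon and lower case 15 bases of each neighbouring exon, from the GENCODE transcripts Itgb1-204, Itga7-202 and Itga7-201.
Itgb1 muscle exon: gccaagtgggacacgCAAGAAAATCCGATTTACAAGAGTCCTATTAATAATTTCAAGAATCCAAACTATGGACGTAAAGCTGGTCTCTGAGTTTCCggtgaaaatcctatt
Itga7 longer exon: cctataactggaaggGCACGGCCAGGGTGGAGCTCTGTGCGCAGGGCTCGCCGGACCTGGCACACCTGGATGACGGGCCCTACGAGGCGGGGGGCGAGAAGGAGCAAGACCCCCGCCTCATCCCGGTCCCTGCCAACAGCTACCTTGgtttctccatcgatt
Itga7 shorter exon: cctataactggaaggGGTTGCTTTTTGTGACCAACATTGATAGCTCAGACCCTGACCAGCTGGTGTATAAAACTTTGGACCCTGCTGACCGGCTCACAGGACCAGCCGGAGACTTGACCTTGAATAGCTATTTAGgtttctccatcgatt

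The muscle exon of Itgb1 had 41.7%, 49.0%, 33.5% and 38.0% of the coverage of the exon before it in Ctrl 1 to 4. In CKO 1 to 6 the values were 28.9%, 30.2%, 38.87%, 25.9%, 22.4% and 45.9%. The means of 40.5% ± 6.5 (SD, n = 4) and 32.0% ± 8.7 (SD, n = 6) overlapped in range, with 4 of 6 CKO libraries below the lowest Ctrl library. Mean coverage of the muscle exon itself was 33.5 reads per base in Ctrl and 30.0 in CKO, and that of the exon before it 83.2 and 95.4. As a share of the pair in Itga7, the longer exon took 14.9%, 15.5%, 50.03% and 23.9% in Ctrl and 11.5%, 16.6%, 10.9%, 22.7%, 16.8% and 21.5% in CKO. The shorter exon was the more covered one in 9 of 10 libraries, and the pair was about even in Ctrl 3. These exons were chosen after coverage had been seen, so the shares carry no test.

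Whole transcripts were tested as well, in a fit over 38768 transcripts of which 0.193% were called. Of the 94 member transcripts tested, 0 were called in edgeR, and 0 under each alternative that was run, and the lowest unadjusted p was 0.0013. The main transcripts of Itga9, Itga5 and Lamb3 (Itga9-201, Itga5-201 and Lamb3-209) came first, with log2 fold changes of 0.62, 0.75 and -1.30 and adjusted p of 0.177, 0.200 and 0.276 in edgeR. Of 59 transcripts that held at least 10% of the TPM of a member with 5 TPM or more, 0 had shares that separated the groups. Itga9-201 held 93.0% ± 3.0 of its gene in Ctrl and 93.9% ± 4.7 in CKO, and Itga5-201 70.4% ± 5.5 and 73.1% ± 7.7.

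The collagen-binding alpha subunits were led by Itga1, with a range of 117 to 162 CPM in Ctrl libraries, 129 to 183 CPM in CKO libraries and a log2 fold change of 0.18 (SE 0.12, adjusted p 0.483 in edgeR). Itga11, a subunit of fibroblasts, was at 19.0, 15.7, 14.5 and 11.6 CPM in Ctrl and at 9.4, 15.2, 13.2, 10.3, 11.6 and 9.3 CPM in CKO. Its log2 fold change of -0.41 (SE 0.18) had an unadjusted p of 0.0483 and an adjusted p of 0.290 in edgeR, and the groups overlapped. Itga2 and Itga10 were low, with at most 91 and 45 counts in a library and log2 fold changes of 0.30 and 0.47 that did not pass. Among the subunits that bind the RGD motif of fibronectin and vitronectin, Itgav was the most abundant per length beside Itga5, at 41.4 ± 6.5 TPM in Ctrl, and its log2 fold change was 0.43 (SE 0.31, adjusted p 0.503 in edgeR). Its CPM ran from 71.7 to 156 in Ctrl and from 71.8 to 183 in CKO. Itga8, of smooth muscle and fibroblasts, and Itga2b, of platelets, had log2 fold changes of 0.09 and -0.38, and neither passed.

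Of the other beta subunits, Itgb5 ran from 84.4 to 118 CPM in Ctrl libraries and from 107 to 137 CPM in CKO libraries, a log2 fold change of 0.14 (SE 0.11, adjusted p 0.553 in edgeR). Itgb8, whose receptor releases active TGF-beta, was at 33.8, 45.5, 35.5 and 57.3 CPM in Ctrl and at 31.6, 29.0, 33.1, 27.7, 44.4 and 35.9 CPM in CKO, with a log2 fold change of -0.36 (SE 0.17) and an adjusted p of 0.324 in edgeR. Itgb3, Itgb4 and Itgb6 had log2 fold changes from -0.10 to 0.12.

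The leukocyte integrins varied widely between libraries of 1 group, and none was called. Itgam, a subunit of macrophages and neutrophils, was at 6.1, 21.2, 16.4 and 48.2 CPM in Ctrl and at 50.3, 8.1, 43.2, 93.0, 101 and 11.6 CPM in CKO. Its log2 fold change of 1.16, the highest among the members, had an SE of 0.73 and an adjusted p of 0.448 in edgeR. Itgal, the alpha subunit of the main lymphocyte integrin, ranged over 1.97 to 18.4 CPM in Ctrl libraries and 6.70 to 16.3 CPM in CKO libraries, with a log2 fold change of 0.26 (SE 0.49, adjusted p 0.821 in edgeR). Itgb2, the beta subunit shared by both, was at 22.4 to 50.4 CPM and 27.8 to 59.7 CPM, with a log2 fold change of 0.28 (SE 0.28, adjusted p 0.654 in edgeR). Itgax, a subunit of dendritic cells and some macrophages, had at most 52 counts in a library and a log2 fold change of -0.06 (SE 0.60, adjusted p 0.974 in edgeR), whose sign changed under other settings. Itgb7, of gut-homing lymphocytes, was at 0.85, 3.8, 19.3 and 22.9 CPM in Ctrl and at 2.8, 3.7, 3.8, 14.8, 3.1 and 2.8 CPM in CKO. It was high in Ctrl 3, Ctrl 4 and CKO 4 and at most 3.84 CPM elsewhere, and its log2 fold change was -1.18 (SE 0.76, adjusted p 0.458 in edgeR). The summed level of 12 lymphocyte markers was 115, 209 and 131 CPM in the same 3 libraries and 5.03 to 14.1 CPM in the other 7. Itga4, the partner of Itgb7 and also of Itgb1, had its highest values there too, at 56.5, 71.6 and 57.1 CPM against 21.1 to 38.0 CPM elsewhere, and a log2 fold change of -0.12 (SE 0.33, adjusted p 0.885 in edgeR). The part of lymphocytes in these values was not tested.

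Genes that work with integrins and laminins were counted in lists, beside 1.54% called higher and 1.26% called lower among all genes tested. Of 25 basement membrane partners 1 was called, higher in CKO: Col4a1, a main collagen of the membrane, which rose from 468 to 763 CPM (log2 fold change 0.71, adjusted p 0.0080 in edgeR). The list had a median log2 fold change of 0.45 with 20 of 25 above 0, and 0 were called lower. Of 24 other integrin ligands 3 were called higher and 0 lower, with a median of 0.51. Postn, a matricellular ligand made by activated fibroblasts, rose from 154 to 614 CPM. Fbn1, the main protein of microfibrils, rose from 758 to 1713 CPM. Vwf, which endothelial cells store and release for platelet adhesion, rose from 667 to 1368 CPM. The markers of fibroblasts, a source of many such ligands, had summed levels of 10288 to 16691 CPM in Ctrl and 13224 to 20485 CPM in CKO. Of these markers 9 of 12 were positive and 0 called. Col1a1, Col1a2 and Col3a1 are also in the ligand list and Fbln1 in the basement membrane list, so the lists are not separate. Within the sum, Col3a1 was at 2944 and 5306 CPM in Ctrl and CKO, and Gsn at 6545 and 4465 CPM. The part of fibroblasts was not tested.

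Of the ligands of the called receptors themselves, Fn1, which Itga5 binds, was at 621 and 706 CPM (adjusted p 0.635 in edgeR), and Tnc, which Itga9 binds, at 10.05 and 28.2 CPM (adjusted p 0.0616 in edgeR), both named after their values were seen. Of 40 integrin adaptors and signalling genes 4 were called higher and 0 lower. Csrp3, a Z-disc protein of muscle, rose from 1038 to 1832 CPM. Pxn, the focal adhesion adaptor paxillin, rose from 47.8 to 68.0 CPM. Itgb1bp2, melusin of muscle, rose from 147 to 214 CPM, and Nrap, of myofibril ends, from 416 to 706 CPM. The median of that list was 0.11. Atrial cardiomyocyte markers gave 1 higher and 8 lower calls of 12, with the muscle gene Tnnt2 as the higher one. Among all genes tested 1.54% were called higher and 1.26% lower.

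No gene was called among 24 genes of other laminin receptors and their linkers, 11 tetraspanins and 3 tested netrins. The most abundant of the first list, Dmd and Utrn, encode cytoplasmic proteins that link the laminin receptor dystroglycan to actin, and were at 731 and 738 CPM and at 573 and 493.3 CPM in Ctrl and CKO. The tetraspanins Cd81 and Cd151, the latter a partner of laminin-binding integrins, were at 230 and 264 CPM and at 135 and 170 CPM. The netrins Ntn1 and Ntn4 were at 94.2 and 101 CPM and at 34.3 and 43.6 CPM. The medians of these lists were 0.04, 0.20 and 0.10.

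The left atrial appendage, from an earlier experiment with the same alleles, was described only through the authors' deposited table, which gives log2 fold changes and false discovery rates for 13646 genes, 32 of the members among them. Itga10, Itgad, Itgae, Itgax and Lama1 have no row there. In the authors' deposited table a total of 13 members were higher and 3 lower in the appendage of CKO mice at a false discovery rate under 0.05, beside 16.8% higher and 17.9% lower among all genes. For the peri-pulmonary vein tissue the authors' deposited table calls 2 members higher, Itga5 and Itga9, and 1 lower, Lamb3 at -1.30 with a false discovery rate of 0.0022, beside 3.03% higher and 2.47% lower among all genes. The median log2 fold change of the 32 members in the authors' deposited table was 0.44 in the appendage, against 0.02 for all genes, and 0.09 in the peri-pulmonary vein tissue, against -0.01.

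The genes called in both regions of the authors' deposited table were Itga5, Itga9 and Lamb3. Itga5 stood at 1.12 in the appendage and 0.69 in the peri-pulmonary vein tissue, and Itga9 at 0.98 and 0.57 in the authors' deposited table. Lamb3 was at -2.58 in the appendage, with a false discovery rate of 2.2e-22 in the authors' deposited table. The members called in the appendage but not in the peri-pulmonary vein tissue of the authors' deposited table were, on the higher side, the leukocyte subunits Itgb7 (4.81), Itgal (2.78), Itgam (2.52) and Itgb2 (1.38), Lamc3 (1.40), Itgb8 (0.95), Itga4 (0.81), Itgb5 (0.63), Itgb1 (0.60), Itga7 (0.57) and Itga3 (0.54). On the lower side they were Itgb6 (-0.48) and Itga6 (-0.39), again in the authors' deposited table. Among marker lists in the authors' deposited table, 11 of 12 macrophage markers were higher and 0 lower in the appendage of CKO mice. For fibroblasts 8 of 12 markers were higher and 3 lower there. For atrial cardiomyocytes 1 of 12 was higher and 11 were lower. The part of these cell types was not tested. Of the partner genes in the authors' deposited table, 18 of 24 basement membrane partners and 17 of 22 other integrin ligands were higher in that tissue, and 3 and 1 were lower. The difference between the regions was not tested. The appendage came from an earlier experiment, so region and experiment cannot be told apart.

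**Figure D5:**
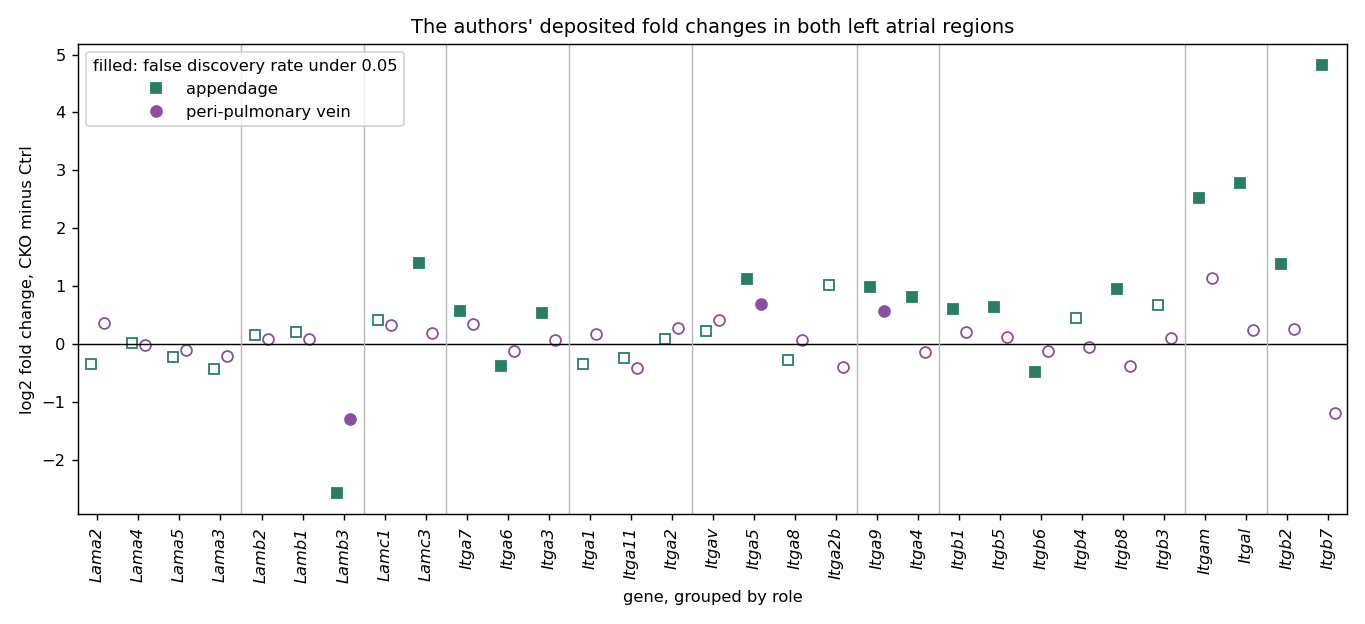
Log2 fold changes of CKO against Ctrl for 31 of the 32 members in the authors' deposited table, with squares for the appendage and circles for the peri-pulmonary vein tissue, filled at a false discovery rate under 0.05. Lamb3 is low and Itga5 and Itga9 are high in both regions, and 13 filled squares stand above 0.

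The authors' deposited table also compares the peri-pulmonary vein tissue with the appendage. Which genotypes enter this comparison is not stated. Its sign was read from the airway gene Scgb1a1, which has 13.8 in the authors' deposited table and was therefore taken as higher around the veins. That gene was carried mainly by Ctrl 3 at 862 CPM and CKO 4 at 1452 CPM, against 0 to 42.0 CPM in the other peri-pulmonary vein libraries. On that reading 12 members were higher and 3 lower around the veins, beside 8.19% and 4.06% of all genes in the authors' deposited table. The higher ones were the leukocyte subunits Itgb7 (9.57), Itgal (3.65), Itgam (3.17) and Itgb2 (1.77), the alpha subunits Itga8 (2.55), Itga4 (2.07), Itga11 (1.87) and Itga2 (1.19), the beta subunits Itgb8 (1.19), Itgb3 (1.07) and Itgb4 (0.83), and the chain Lama4 (0.55), all from the authors' deposited table. The lower ones were Lamb3 (-1.50), Itga7 (-0.80) and Itga6 (-0.56) in the authors' deposited table. In the same comparison the authors' deposited table has 9 of 12 atrial cardiomyocyte markers and 3 of 12 endothelial markers lower around the veins. The markers higher there in the authors' deposited table were 6 of 12 for smooth muscle and pericytes, 5 of 12 for macrophages, 4 of 12 for fibroblasts, 4 of 7 for lymphatic endothelium, 6 of 7 listed for adipocytes, 5 of 6 for mast cells, 4 of 5 for Schwann cells and 2 of 2 for lymphocytes. Their part in these values was not tested. This comparison shares libraries with those of CKO and Ctrl, so the values are given side by side only. Because the appendage came from an earlier experiment, a difference between regions cannot be told apart from one between experiments.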

How the data were processed

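The members were taken by name alone, but this group of genes and the gene lists were chosen with earlier results of these data known. The labels' protocols describe a ribosomal RNA removal step, and the molecule field says polyA RNA. Per the submitters' processing notes, reads were aligned to mm10 with TopHat2 2.1.1, filtered with BamTools and assigned to transcripts with StringTie 1.3.3. The gene table deposited by the authors holds expected counts, which for all 54532 genes equalled the bases covered in each transcript divided by 50, the read length, and rounded up. The transcript files deposited by the authors give coverage and TPM. The authors' deposited table gives log2 fold changes, p-values and false discovery rates. 10 further columns of per-sample values in the gene table, from appendage libraries, were not used here.

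Genes passing filterByExpr were fitted in edgeR 4.0.16 (R 4.3.3) with TMM scaling and genotype as the only term, and p came from its quasi-likelihood test. Libraries are separate mice by the study's description. Transcripts were tested in the same way. In simulated counts for this comparison (17752 genes), 56 genes were set to change 1.5 times, 75 to change 2 times and 69 to change 4 times. The fit recovered 10.7%, 45.3% and 87.0% of these, and 5 of its 105 calls were false. The measured data gave 497 calls, so recovery in them may differ. Exon coverage was summed over the transcripts that share an exon. Members were given in full when called, when an unadjusted p under 0.05 came with groups that did not overlap, and for the 2 of highest TPM in each role. From each list up to 4 called genes were named, or the 2 of highest CPM. Lamb3 and its exons, the alternative exons, Itga11, Itgb8, Itgax, Fn1, Tnc and Tnnt2 were added after values were seen. Alternatives were DESeq2 1.42.0, limma 3.58.1 with voom weights, 2 other scalings, 2 other filters, a replicate block, Xist as a covariate, no Ctrl 3 and CKO 4, and each library left out in turn. The values of 1 member are not reported here.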

Additional observations from a re-analysis of the deposited data

Results flagged for a closer look

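Of the 68 sets of libraries examined (34 genes in 2 groups), 9 held 1 library far from the others by Dixon's criterion, which chance alone meets in about 1 of 20. CKO 4, which carries airway transcripts, was the high library for Lamb3 (17.0 CPM against 5.15 to 7.42 in the other CKO libraries), for Itgb7 (14.8 against 2.80 to 3.84) and for Itga4 (57.1 against 30.9 to 38.0). Ctrl 3, the other library with airway transcripts, was low for Itga6 (67.7 CPM against 82.2 to 83.8 in Ctrl). Ctrl 2 was high for Itgav (156 CPM against 71.7 to 74.9) and low for Itgb1 (425 CPM against 534 to 556). Ctrl 4 was low for Itgb5 (84.4 CPM against 113 to 118). CKO 2 was low for Itgb4 (19.4 CPM against 26.4 to 30.4), and CKO 5 was high for Lamb1 (331 CPM against 267 to 285).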

How the results depend on the processing

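The count of 2 members called higher was 1 (Itga5) with no filter on low counts and 0 to 2 when 1 library was left out. It was 0 without Ctrl 1, Ctrl 2 or CKO 2, and 1 (Itga5) without Ctrl 4, CKO 1, CKO 3 or CKO 6. With the replicate number as a block and without CKO 5 and CKO 6, whose numbers no Ctrl library shares, it was 0. In that setting 51 genes were called in all in place of 497. The block and the loss of these libraries cannot be told apart there. Itga5 then stood at 0.68 with an adjusted p of 0.214 in edgeR, and Itga9 at 0.59 with 0.174. Same-numbered libraries had correlations of 0.0313, 0.0876, -0.319 and 0.0894, so the numbers do not pair the libraries. The count of 0 members called lower was 1 (Lamb3) with DESeq2, with limma voom, with Xist as a covariate and without Ctrl 3 and CKO 4, and 0 to 1 when 1 library was left out. The count of 2 members whose groups did not overlap was 6 without Ctrl 3 and CKO 4, and 2 to 5 when 1 library was left out (5 without CKO 4). The share of all genes without overlap was 5.72% with all libraries, 17.4% without Ctrl 3 and CKO 4, 7.95% without CKO 4, and from 6.44% (without CKO 1) to 14% (without Ctrl 3) over all libraries left out in turn. All genes called were 1132 with DESeq2 and 190 to 607 when 1 library was left out. The transcript count was 0 in each setting run. Levels in Ctrl changed order when counts per exon length replaced TPM, as for Lamb1 and Itgb5, and Itgb2 moved from rank 15 to rank 10.

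Some fold changes that had not passed the test changed sign. Lama4 was 0.0062 with DESeq2 size factors and with DESeq2, 0.036 with no filter and 0.075 without Ctrl 3 and CKO 4. Itga4 was 0.068 with voom, 0.070 with the block and 0.071 with Xist. Itgax was 0.50, 0.18 and 0.37 in the same settings and 0.31 without Ctrl 3 and CKO 4. With the block Itga2 was -0.0035 and Itga8 -0.030, and Itgb4 was 0.0053 with Xist and 0.22 without Ctrl 3 and CKO 4. When 1 library was left out, 19 values changed sign. The ranges were -0.15 to 0.44 for Itga8, -0.071 to 0.050 for Lama4, -0.044 to 0.67 for Lamc3, -0.054 to 1.00 for Itgal, -0.34 to 0.25 for Itga4, -0.42 to 0.46 for Itgax, -0.15 to 0.22 for Itgb4, -0.53 to 0.041 for Itga2b and -0.019 to 0.18 for Itga3. The cause was not tested. Of the other fold changes under the same alternatives, 284 and 310 kept their direction and side of the threshold.

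With 4 and 6 libraries, small changes are seldom found, so a member that was not called is not shown to be unchanged.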
